A study of Homo sapiens with 6 samples.

Results

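BRA binding in mesoderm progenitors was mapped with 2 antibodies, from R&D Systems and from Santa Cruz, and the sites that each antibody detected were set against each other. The FLyB lists hold 26694 peaks (23687 from the R&D Systems antibody and 3007 from the Santa Cruz antibody) of 54994 in the 4 lists of the series, and every one of them was included. The cells were H9, an established line of human embryonic stem cells (hESCs). FLyB-treated cells were cultured for 36 h with 20 ng/ml FGF2, 10 μM LY294002, an inhibitor of PI3 kinase, and 10 ng/ml BMP4. They are labelled mesoderm progenitors. FLyA-treated cells, labelled endoderm progenitors, received the same FGF2 and LY294002 for 36 h with 100 ng/ml activin A in place of BMP4, and enter here as a second measurement at the same sites and, in 1 paragraph, as a pair of lists of their own. All cells came from this 1 line. Each medium and antibody had 1 library, so no test across replicates was possible, and the spread between repeat experiments is unknown. The 2 input libraries were not analysed here. Peak positions carry no expression, so the labelled cell type could not be checked against its markers.

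BRA, the product of the T gene, is a transcription factor of the T-box family. It is expressed in the primitive streak, the structure through which cells of the early embryo ingress to form mesoderm and endoderm, and is required for posterior mesoderm and notochord. T-box factors contact DNA through a short core, written GGTGTGA on 1 strand and TCACACC on the other, and bind close to genes for other streak factors, for WNT and FGF signals and for somite formation. In ChIP-seq an antibody pulls down the protein-DNA complexes, and the same factor mapped with different antibodies can give lists of different length. What set the length of the lists here was not tested.

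In the deposited lists every peak is 400 bp wide and has a chromosome, a start and an end (build hg19) but no height, so peaks could not be ranked by strength. An R&D Systems FLyB peak is called recovered here when a Santa Cruz FLyB peak overlaps it by at least 1 bp, and missed when none does. A missed peak is one that the Santa Cruz list does not hold. It is not shown to be unbound. The read depth of the libraries is not in the lists, and the study describes fewer unique reads and more background for the Santa Cruz antibody. The part of this in recovery was not tested. The study also reports a high correlation of BRA binding between the antibodies in each medium, a measure that peak positions alone cannot give. The 95% interval given with a percentage is exact (Clopper-Pearson). It takes each peak as an independent count and so covers counting error alone.

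The letters of the T-box core were looked for in the promoters of 102 listed streak, mesoderm and pathway genes, to show which of them carry it next to their start. Of these genes, 68 had a RefSeq promoter (GRCh38.p14, from 250 bases before to 50 bases after the start), and GGTGTGA or its reverse complement TCACACC was present in 3 (4.41%). Over all 35116 RefSeq promoters of this length it was present in 1211 (3.45%), a similar share. The 3 genes are RIPPLY1 and RIPPLY2, which encode repressors that act with T-box factors in somite segmentation, and WNT5A, a WNT ligand of the posterior streak. The core is in capitals, and each sequence is written 5′ to 3′ on the strand of the gene.
RIPPLY1: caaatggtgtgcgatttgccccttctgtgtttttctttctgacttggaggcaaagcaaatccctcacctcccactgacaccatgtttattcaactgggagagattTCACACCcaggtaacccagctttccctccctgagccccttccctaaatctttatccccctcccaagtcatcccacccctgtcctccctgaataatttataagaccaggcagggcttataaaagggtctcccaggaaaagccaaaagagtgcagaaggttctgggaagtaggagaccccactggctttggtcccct
RIPPLY2: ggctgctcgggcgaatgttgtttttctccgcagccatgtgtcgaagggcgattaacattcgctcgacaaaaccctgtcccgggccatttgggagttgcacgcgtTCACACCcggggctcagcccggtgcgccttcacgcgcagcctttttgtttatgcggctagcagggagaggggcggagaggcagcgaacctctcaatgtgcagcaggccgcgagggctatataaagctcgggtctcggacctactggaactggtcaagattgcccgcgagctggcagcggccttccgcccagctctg
WNT5A: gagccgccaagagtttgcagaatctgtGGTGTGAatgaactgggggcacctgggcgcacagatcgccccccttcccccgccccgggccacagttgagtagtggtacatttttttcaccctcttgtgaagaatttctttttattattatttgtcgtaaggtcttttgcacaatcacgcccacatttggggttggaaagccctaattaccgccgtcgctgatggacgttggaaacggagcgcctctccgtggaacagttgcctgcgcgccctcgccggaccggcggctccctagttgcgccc
The first base of the core lies at -145 in RIPPLY1 (chrX:106903292-106903591, minus strand), at -146 in RIPPLY2 (chr6:83853110-83853409, plus strand) and at -223 in WNT5A (chr3:55487257-55487556, minus strand), counted from the gene's start. A match is a description of the letters and not a measured site. The peaks are in hg19, so peaks and these promoters were not placed on each other base by base. Within 50 kb of the genes, the Santa Cruz antibody recovered 2 of 4 R&D Systems FLyB peaks at RIPPLY2 (chr6:84555515-84555914 and chr6:84562687-84563086 in hg19), 1 of 4 at RIPPLY1 (chrX:106146598-106146997) and 0 of 6 at WNT5A.

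The Santa Cruz antibody recovered 2379 of the 23687 R&D Systems FLyB peaks, 10.0% (9.66 to 10.4%), and missed 21308. A MACS threshold of 1e-12 is named for the Santa Cruz peaks and none for the R&D Systems peaks, so whether both were called equally strictly is unknown. Counted from the Santa Cruz list, 2377 of 3007 peaks lay on an R&D Systems FLyB peak, 79.0% (77.5 to 80.5%). Where both antibodies detected a site, they placed it at nearly the same position. Midpoints were within 50 bp of each other for 69.4% of these Santa Cruz peaks and within 100 bp for 90.5%, and the Santa Cruz midpoint lay to the right 1136 times and to the left 1211 times. The correspondence was close to 1 to 1, as 4 Santa Cruz peaks spanned 2 R&D Systems peaks and 2 R&D Systems peaks lay under 2 Santa Cruz peaks. The width of 400 bp limits both measures. Overlapping peaks must have midpoints less than 400 bp apart, and each can have few partners. The placement was alike at sites with and without an R&D Systems FLyA peak, with medians of 30 bp and 32.0 bp.

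Recovery was next followed along the genome by counting, for each R&D Systems FLyB peak, the other R&D Systems FLyB peaks within 50 kb (midpoint to midpoint). This count uses the R&D Systems list alone. Of the 6489 peaks with no neighbour, 485 were recovered, 7.47% (6.85 to 8.14%). The share was 9.56% (8.81 to 10.3%) with 1 neighbour, 10.3% (9.38 to 11.3%) with 2 and 11.8% (10.9 to 12.8%) with 3 to 4. It was 12.7% (11.5 to 14%) with 5 to 9 neighbours and 17.8% (14.2 to 22%) with 10 or more, where 70 of 393 peaks were recovered. Recovery was thus higher in each denser class, although the intervals of neighbouring classes overlap in all steps but the first and the last. Pooled over 5 or more neighbours, 426 of 3192 peaks were recovered, 13.3% (12.2 to 14.6%), which is 1.79 times the share of lone peaks (1.58 to 2.02). Recovered peaks had a median of 2 neighbours and missed peaks a median of 1, so the groups overlap widely.

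The nearest neighbour gave the same order at most distances. A peak whose nearest R&D Systems FLyB neighbour lay 100 kb or more away was recovered in 7.14% of cases (6.30 to 8.06%), and one whose nearest neighbour lay 1 to 3 kb away in 13.7% (12.5 to 15%). Recovery at 400 bp to 1 kb was 12.2% (10.8 to 13.6%), and at overlapping R&D Systems peaks, under 400 bp apart, it was 5 of 80. The share was therefore highest where peaks lay 1 to 3 kb apart, with an interval that overlaps that of the next shorter distance.

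Recovered sites more often had an R&D Systems FLyA peak at the same place, 52.5% (50.5 to 54.5%) of them against 34.3% (33.7 to 34.9%) of missed sites. FLyA peaks overlapped 8558 of the R&D Systems FLyB peaks (36.1%). Of these, 1249 were recovered, 14.6% (13.9 to 15.4%), against 1130 of the 15129 without a FLyA peak, 7.47% (7.06 to 7.90%), a ratio of 1.95 (1.81 to 2.11). Sites that both antibodies had detected in FLyA were recovered most often, in 224 of 537 cases, 41.7% (37.5 to 46.0%). Sites with the R&D Systems FLyA peak alone were recovered in 12.8% (12.1 to 13.5%), those with the Santa Cruz FLyA peak alone in 13 of 79 and those on neither FLyA list in 7.42% (7.01 to 7.85%). The last class made up 47.0% of recovered sites and 65.4% of missed sites. Sites on no FLyA list were thus a smaller part of the recovered than of the missed sites. Santa Cruz FLyB peaks lay on 52 of the 17320 R&D Systems FLyA peaks that had no R&D Systems FLyB peak, 0.300% (0.224 to 0.394%). Santa Cruz FLyA peaks lay on 79 of the 15129 R&D Systems FLyB peaks without an R&D Systems FLyA peak, 0.522% (0.414 to 0.650%). Neither is a share of recovered sites. The first set leaves out all R&D Systems FLyB peaks, where 79.0% of the Santa Cruz FLyB peaks lay.

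Density and the FLyA peak were then examined jointly. The share of R&D Systems FLyB peaks with a FLyA peak was nearly flat over the density classes, between 35.0% and 38.2%. Among sites with a FLyA peak, recovery was 10.0% (8.85 to 11.3%) with no neighbour, 20.6% (18.1 to 23.2%) with 5 to 9 and 30% (22.8 to 38.0%) with 10 or more. Among sites without one it was 6.0% (5.29 to 6.77%) with no neighbour, 8.21% (6.98 to 9.59%) with 5 to 9 and 10.3% (6.77 to 14.8%) with 10 or more. The comparison of 5 or more neighbours with none gave a ratio of 2.17 (1.85 to 2.55) with a FLyA peak and 1.41 (1.17 to 1.70) without, and these intervals do not overlap. The FLyA ratio itself was 1.67 (1.41 to 1.98) among lone peaks and 2.57 (2.15 to 3.08) among those with 5 or more neighbours. Peak height is not in the lists, so whether it differed between these classes was not tested.

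**Figure D1:**
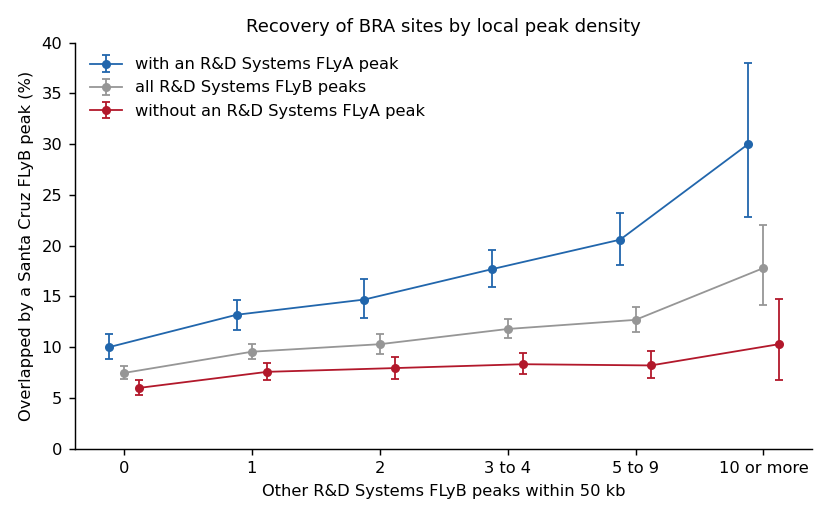
Percentage of R&D Systems FLyB peaks overlapped by a Santa Cruz FLyB peak (y axis) by the number of other R&D Systems FLyB peaks within 50 kb (x axis), for all peaks (grey) and for those with (blue) or without (red) an R&D Systems FLyA peak, with exact 95% intervals as bars. The blue line runs from 10.0% to 30%, the red line from 6.0% to 10.3%.

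The FLyA pair of lists, counted in the same way, gave lower shares in the same order. The Santa Cruz FLyA list recovered 3.02% (2.81 to 3.24%) of the R&D Systems FLyA peaks, from 2.17% with no neighbour to 5.38% (4.40 to 6.50%) with 5 or more. In every density class the FLyB pair had the higher share, although with 10 or more neighbours (12 of 83 in FLyA) the intervals overlap. With 1 library each, this cannot be told apart from a difference between the Santa Cruz libraries.

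Neighbouring peaks may not be independent, so the R&D Systems FLyB peaks were also chained into 11329 clusters, in which no gap between midpoints exceeded 50 kb. The share of clusters with at least 1 recovered peak was 7.47% for lone peaks, 18.3% (16.8 to 20.0%) for pairs and 51.9% (48.4 to 55.4%) for clusters of 5 to 9. It was 75% (67.6 to 81.5%) for clusters of 10 to 19, and all 18 clusters of 20 or more held a recovered peak. A larger cluster has more peaks that can be recovered, so this share must grow with size. Per peak, the share went only from 7.47% in lone peaks to 12.2% in clusters of 5 to 9 and 13.5% in those of 20 or more. In the 2335 pairs, the partner of a recovered peak was recovered no more often than that of a missed peak. The partner of a recovered peak was recovered in 40 of 448 cases, 8.93% (6.46 to 12%), and that of a missed peak in 408 of 4222, 9.66% (8.79 to 10.6%). The 40 are 20 pairs counted from both sides, and the 1907 pairs with none recovered also count from both sides. These intervals are therefore too narrow.

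**Figure D2:**
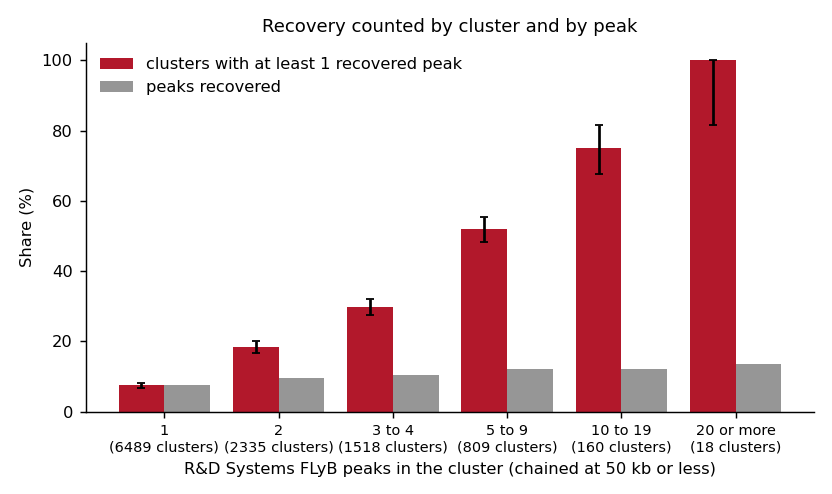
Share (y axis, %) of clusters with at least 1 recovered peak (red, with exact 95% intervals) and of single peaks recovered (grey), by the number of R&D Systems FLyB peaks in the cluster (x axis). The red bars go from 7.47% to 100%, while the grey bars stay between 7.47% and 13.5%.

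The clusters with the most peaks were recovered in part. The largest had 31 R&D Systems FLyB peaks (chr11:119522479-119901639), of which 2 were recovered. The cluster at HOXB1 (chr17:46549851-46724909), a HOX gene of the hindbrain and posterior axis, had 26 peaks with 2 recovered, and that at AXIN2 (chr17:63434898-63624232) had 24 with 3 recovered. The cluster at T itself (chr6:166535195-166739179) had 22 peaks with 5 recovered, and that at GATA6 (chr18:19514513-19766029) had 20 with 3. Among the 18 largest clusters the count ranged from 1 to 7, the highest at chr11:125032625-125314144, where no listed gene lies and 7 of 24 peaks were recovered.

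Recovery was also counted by chromosome. Over the 23 chromosomes with at least 100 R&D Systems FLyB peaks the median was 9.89%. Chromosome 17 had the densest peaks, with a mean of 4.23 neighbours against 1.99 elsewhere, yet its share of 9.71% was near the median. Chromosomes 19 and 18, named because they were lowest and highest, stood at 4.86% (26 of 535, 3.20 to 7.04%) and 13.5% (82 of 606, 10.9 to 16.5%). An R&D Systems FLyA peak lay on 42.4% of the chromosome 19 peaks and 38.8% of those on chromosome 18, beside 36.1% over all. Recovery by chromosome thus did not simply follow the share with a FLyA peak. Over all chromosomes but 17, the density ratio was 1.92 (1.69 to 2.18). On chromosome 17 it was 1.94 (0.898 to 4.17), an interval that includes 1, and the classes there did not follow the order, with 4.43% recovered at no neighbour, 14% at 2, 12.5% at 3 to 4, 7.48% at 5 to 9 and 12.4% at 10 or more.

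**Figure D3:**
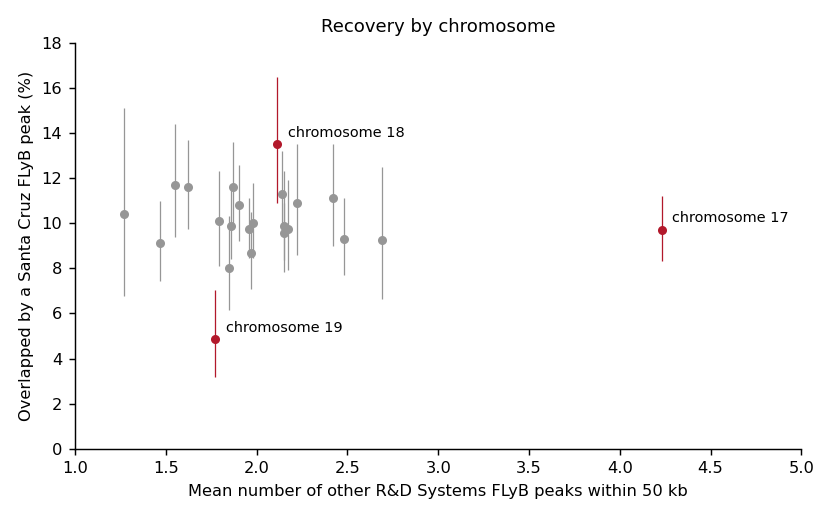
Percentage of R&D Systems FLyB peaks recovered (y axis) against the mean number of other R&D Systems FLyB peaks within 50 kb (x axis), 1 point per chromosome with at least 100 peaks and exact 95% intervals as bars. Chromosome 17 lies far to the right at 4.23 neighbours but at 9.71% recovered, chromosome 19 is lowest at 4.86% and chromosome 18 highest at 13.5%.

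Loci known from gastrulation were then examined, counting peaks from 50 kb before to 50 kb after each gene. Gene windows in hg19 were approximate, rounded outward to 10 kb, and neighbouring genes can share peaks, which count once in a list. R&D Systems FLyB peaks lay at 98 of the 102 genes and recovered ones at 50. The same share over all genes was not computed, as no hg19 annotation was used here. All 15 genes with 10 or more R&D Systems peaks had a recovered one, as had 28 of 44 genes with 5 to 9 peaks and 7 of 39 with 1 to 4. As with clusters, a gene with more peaks has more that can be recovered, so these shares must grow. The 9 mesoderm and pathway lists together held 509 peaks, of which 76 were recovered, 14.9% (11.9 to 18.3%), beside 10.0% over all peaks. These peaks had a mean of 6.50 neighbours. Peaks of the same density class and FLyA state were recovered in 12.6% across the genome, which lies inside that interval. Recovery at these loci was 52 of 181 peaks with a FLyA peak (28.7%) and 24 of 328 without (7.32%). Over all peaks with 5 or more neighbours it was 21.8% and 8.46%.

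The list of streak genes, which holds the T-box and basic helix-loop-helix (bHLH) genes and the homeobox gene MIXL1, had the highest share of the 10 lists, with 14 of 45 peaks recovered, 31.1% (18.2 to 46.6%), beside 12.5% for peaks of like density and FLyA state. All 7 genes of the list had at least 1 recovered peak. T had 12 R&D Systems peaks, 4 of them recovered by 3 Santa Cruz peaks. The recovered T peaks lie at chr6:166586660-166587059, which also had an R&D Systems FLyA peak, at chr6:166587588-166587987, and at chr6:166636575-166636974 and chr6:166637173-166637572, which share a single Santa Cruz peak between them. When 200 bp of overlap was required, that last pair was lost and 2 remained. MESP2 and MESP1 are adjacent bHLH genes of somite segmentation and of early cardiac mesoderm, so their windows share peaks. MESP2 had 5 of 10 recovered and MESP1 4 of 9. The MESP peak at chr15:90291084-90291483 was the only recovered one of this locus that all 4 lists held. Of the 14 recovered peaks of the list, 4 thus lay at T and 5 at the MESP genes. The interval of the list takes peaks as independent and may be too narrow.

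EOMES, a T-box factor of the anterior streak, had 2 of 5 peaks recovered, both with an R&D Systems FLyA peak (chr3:27755528-27755927 and chr3:27769895-27770294). MIXL1, a homeobox gene of mesendoderm, had 1 of 5 (chr1:226398243-226398642), and TBX6, the T-box factor that specifies paraxial mesoderm, had 1 of 5 (chr16:30097163-30097562). MIXL1 and TBX6 tied with EOMES in number of peaks, and genes with such a tie are named in the other lists too. MSGN1, a bHLH factor of presomitic mesoderm, had 1 of 8 (chr2:17997367-17997766), at a site without a FLyA peak, and 1 further Santa Cruz peak that was not on the R&D Systems FLyB list. Within the list, recovery was 8 of 16 at sites with a FLyA peak and 6 of 29 at those without. Over all peaks with 5 or more neighbours it was 21.8% and 8.46%.

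**Figure D4:**
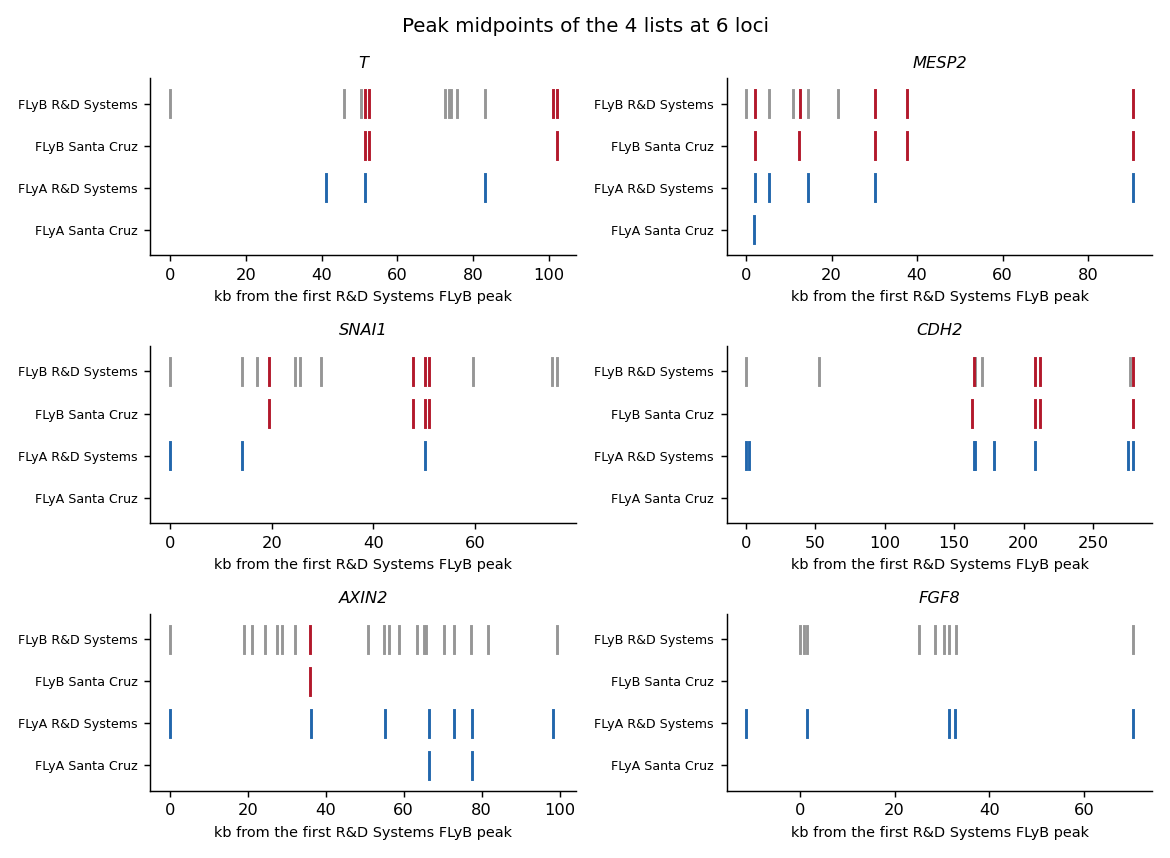
Midpoints of the peaks of the 4 lists within 50 kb of T, MESP2, SNAI1, CDH2, AXIN2 and FGF8, in kb from the first R&D Systems FLyB peak of the window (x axis), with the lists on the y axis. Recovered R&D Systems FLyB peaks and Santa Cruz FLyB peaks are red, missed ones grey and FLyA peaks blue, and 4 of 12 peaks are red at T, 5 of 10 at MESP2, 4 of 13 at SNAI1, 4 of 9 at CDH2, 1 of 20 at AXIN2 and 0 of 9 at FGF8.

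Genes of epithelial-mesenchymal transition, the loss of cell-cell adhesion with which cells leave the streak, came next with 10 of 39 peaks, 25.6% (13 to 42.1%), beside 12.1% for like peaks. The 10 recovered peaks lay at 3 of the 8 genes. SNAI1, a repressor of epithelial cadherin, had 4 of 13, of which 3 lay together at chr20:48629223-48629622, chr20:48631592-48631991 and chr20:48632510-48632909. CDH2, which encodes the N-cadherin of mesenchymal cells, had 4 of 9, and ZEB2, a further repressor of epithelial genes, had 2 of 12. VIM, an intermediate filament of mesenchyme, had 0 of 2, and CDH1, the epithelial cadherin, FN1, which encodes fibronectin, and SNAI2, a relative of SNAI1, had 0 of 1 each.

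In the paraxial mesoderm and Notch clock list, 13 of 73 peaks were recovered, 17.8% (9.84 to 28.5%), an interval that includes both 10.0% and the 13% of like peaks. HES7, the oscillating repressor of the somite clock, had 3 of 9 recovered, MEOX1, a somite homeobox gene, 2 of 8, and FOXC1, a forkhead factor of paraxial mesoderm, 2 of 10. NOTCH1, the receptor, had 1 of 9. The Notch ligands DLL1 and JAG1 had 0 of 6 and 0 of 5, and LFNG, which modifies the receptor, 0 of 7, although 3 of those at LFNG had a FLyA peak. HES1, with as many peaks as JAG1, had 2 of 5. Of the 14 genes of this list, 7 had a recovered peak and 7 had none. Both recovered peaks at RIPPLY2 were at sites without a FLyA peak, and the recovered one at RIPPLY1 was at a site with one.

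Blood and vascular genes had 7 of 43 recovered, 16.3% (6.81 to 30.7%), beside 10.5% for like peaks. ETS1, an ETS factor of endothelium, had 2 of 15. PDGFRA, a receptor that marks early mesoderm, had 3 of 9, and these 3 were all of its peaks that had a FLyA peak. LMO2, a partner of blood transcription factors, had 1 of 6, while RUNX1, required for blood stem cells, had 0 of 6. KDR, a receptor of vascular progenitors, had 1 of 3 and FLI1, an ETS factor, 0 of 3. Posterior identity genes had 10 of 65, 15.4% (7.63 to 26.5%), beside 12.6%. HOXB1 had 2 of 20, CDX2 and CDX1, caudal homeobox genes that pattern the posterior axis, 2 of 7 and 1 of 10, and EVX1, a homeobox gene of the posterior streak, 1 of 6. SALL4, a zinc finger factor also used in pluripotent cells, had 0 of 5.

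The WNT and FGF pathway list was the largest, with 15 of 127 peaks recovered, 11.8% (6.76 to 18.7%), beside 13.8% for like peaks. Recovery went with the FLyA peak here as across the genome, at 13 of 53 peaks with one (24.5%) and 2 of 74 without (2.70%). The list had a mean of 7.61 neighbours. Over all peaks with 5 or more neighbours the shares were 21.8% with a FLyA peak and 8.46% without. WNT3, the ligand needed to form the streak, had 3 of 14, all 3 at sites with a FLyA peak (chr17:44850535-44850934, chr17:44863086-44863485 and chr17:44867577-44867976). SP5, a zinc finger target of WNT, also had 3 recovered, of 11. AXIN2, a feedback inhibitor of WNT, had as many R&D Systems FLyB peaks as any listed gene except HOXB1, its equal at 20, and 1 of them was recovered (chr17:63527367-63527766). FGF4 had 1 of 11 and LEF1, a transcription factor of the WNT pathway, 1 of 9. FGF8, an FGF ligand of the streak, had none of 9 recovered, although 4 of these had a FLyA peak, and the inhibitors NOTUM (WNT) and SPRY2 (FGF) had 0 of 6 and 0 of 5. WNT8A, with as many peaks as SPRY2, had 2 of 5. Of the 16 genes of this list, 10 had a recovered peak and 6 had none.

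Lateral and extraembryonic mesoderm genes had 6 of 79 recovered, 7.59% (2.84 to 15.8%), beside 12.2% for like peaks. HAND1, a bHLH factor of lateral and extraembryonic mesoderm, had 1 of 13, TBX3 1 of 12, GATA4 1 of 9 and FOXF1, a forkhead factor of lateral mesoderm, 1 of 7, whereas TBX4, a hindlimb T-box factor, had 0 of 7 and GATA3 0 of 6. BMP feedback genes had 1 of 27, 3.70% (0.0937 to 19%), beside 11.7%. The 1 recovered peak lay at SMAD7 (1 of 4), and the ID genes, direct targets of BMP signalling, had none, with 0 of 7 at ID3, 0 of 6 at ID1 and 0 of 4 at ID2. SMAD6 had 0 of 4. Retinoic acid genes had 0 of 11, which allows a share of up to 27.3% (3 counts of 11; the exact upper limit is 28.5%). These were 5 peaks at ALDH1A2, the synthesising enzyme, 3 at the receptor RARA, 2 at RARB and 1 at CYP26A1, the degrading enzyme. The intervals of all 3 lists include 10.0%.

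Anterior streak and endoderm genes, listed for contrast, had 7 of 61 recovered, 11.5% (4.74 to 22.2%), beside 14.4% for like peaks, and 33 of their 61 peaks had a FLyA peak. LHX1, a homeobox gene of the anterior streak and node, had 3 of 12, GATA6, an endoderm and heart factor, 1 of 9, and FOXJ1, the master factor of motile cilia, 1 of 6. LEFTY2, a NODAL inhibitor, had 1 of 6, which was lost when 200 bp of overlap was required. NODAL itself had 0 of 5 and OTX2, an anterior homeobox gene, 0 of 5. The intervals of this list and of the list of streak genes overlap.

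**Figure D5:**
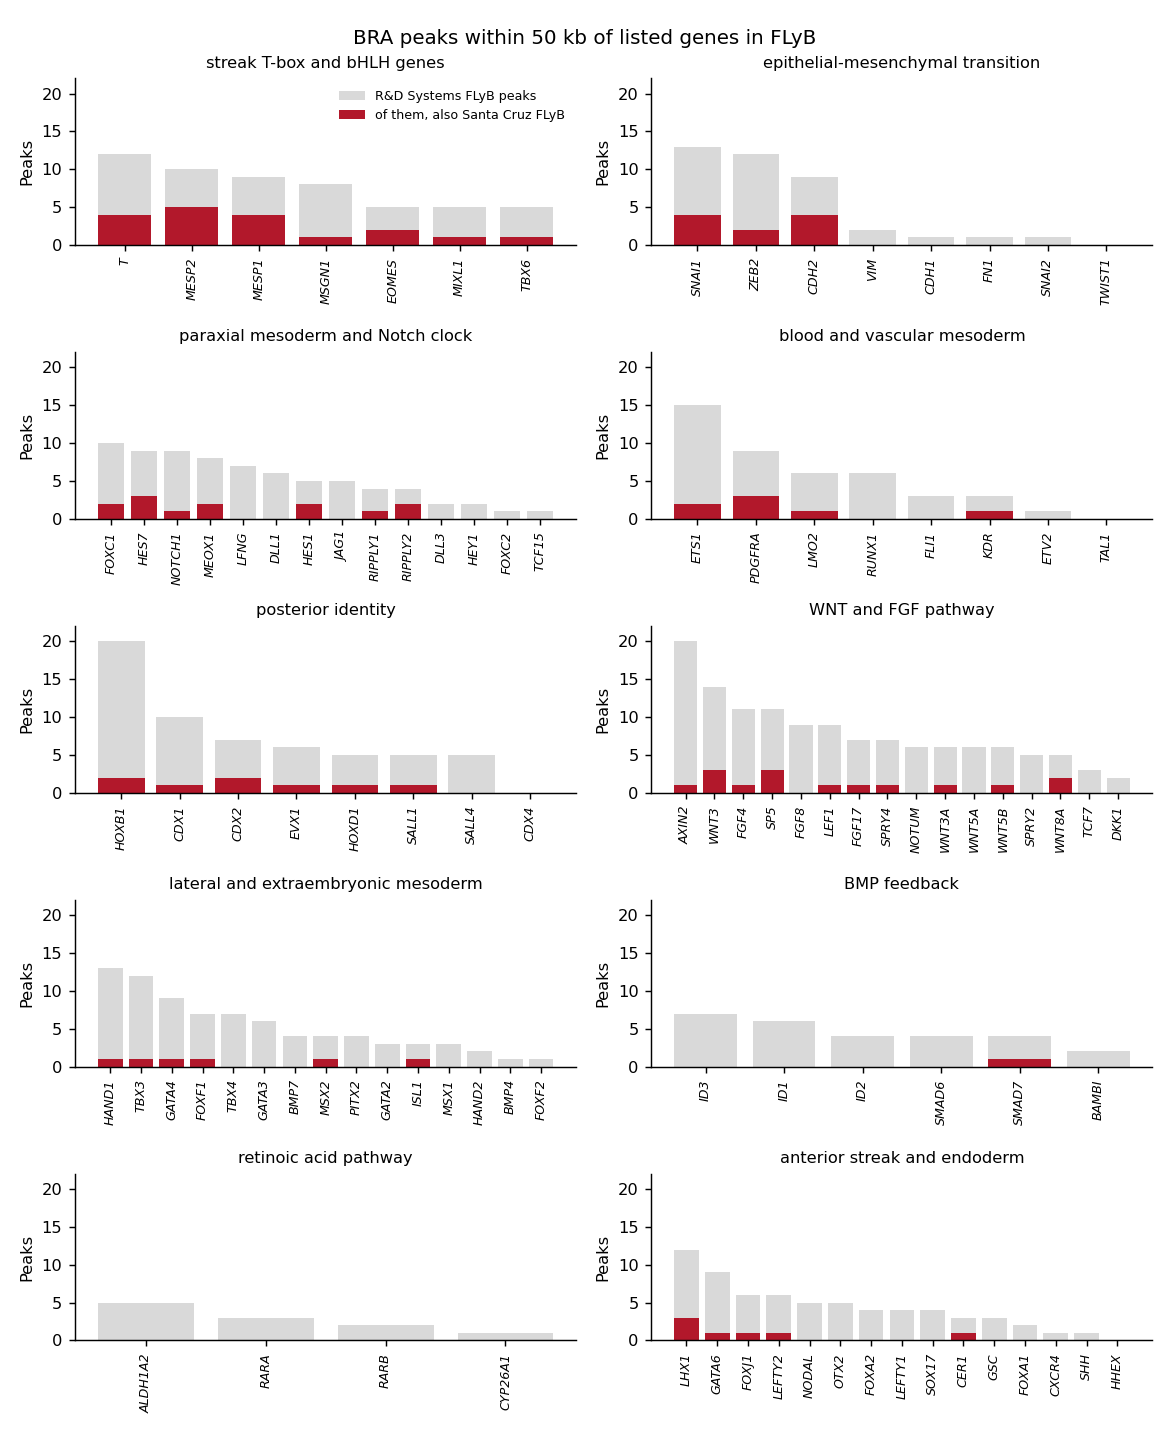
R&D Systems FLyB peaks within 50 kb of listed genes (grey bars, count on the y axis) and those of them overlapped by a Santa Cruz FLyB peak (red), in 10 panels by gene list. Red reaches 4 of 12 at T and 5 of 10 at MESP2 but 1 of 20 at AXIN2, and no red is present in the retinoic acid panel.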

How the data were processed

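BRA ChIP-seq libraries of H9 hESCs were sequenced on a Genome Analyzer II. The authors called peaks with MACS and deposited them as positions, 1 list per medium and antibody, with no score, fold or read count. The submitters' processing notes name hg19 and Bowtie 0.12.7. A threshold of 1e-12 stands in the track line of each Santa Cruz list. No such line is in those of R&D Systems. The input used for each list is not given in the sources used here, and read depth is not in the lists. The study describes lower unique read counts and a weaker signal over noise for the Santa Cruz antibody.

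Positions were compared with Python 3.11.15, NumPy 2.4.6, SciPy 1.17.1 and matplotlib 3.10.9, on functions tested on simulated data, and bedtools 2.31.1 gave equal counts. Ratios of shares have 95% intervals from the normal approximation on the log scale. Members and gene lists were chosen with earlier results of these data known. Named genes were, per list, the 5 with the most R&D Systems FLyB peaks, those with 50% or more of at least 2 peaks recovered, and those with at least 5 peaks and none recovered. RIPPLY1, HES1, WNT8A and genes tied with the fifth of a list (MIXL1, TBX6, KDR, LEF1, FN1, SNAI2) were added after their values were seen. A posterior identity gene that the rule names is counted in its list but not reported here. Shares of like peaks weight the genome-wide shares by the density class and FLyA state of a list's peaks, a step added after the data were seen.

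No hg19 annotation or genome was used here. Gene windows were placed by hand from general knowledge of hg19 and rounded outward to 10 kb. All 102 fell on the chromosome that the GRCh38 RefSeq table gives, and 101 had a span within 30 kb of that table's gene length, which does not check their position. The planned comparison of sequence under recovered and missed peaks was not run. Alternatives covered the overlap rule, windows, merged peaks and chromosomes left out.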

Additional observations from a re-analysis of the deposited data

How the results depend on the processing

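Of 93 alternative values, 86 lay inside the interval of the reported value and none of the ratios crossed 1. The 93 include the density and FLyA ratios with each of 24 chromosomes left out in turn. Those settings keep most peaks, and all of their values lay inside. The 7 values outside the interval were these. Requiring 200 bp of overlap put 76.7% of Santa Cruz FLyB peaks on R&D Systems FLyB peaks. Accepting midpoints at most 1 kb apart gave 81.1% for the same share, 11.2% of R&D Systems FLyB peaks recovered, a density ratio of 2.07 and a FLyA ratio of 1.76. The density ratio was 2.17 among peaks with an R&D Systems FLyA peak and 1.41 among those without. Except where the rule itself admits more or fewer peaks, the cause was not tested. With each of 24 chromosomes left out in turn, the density ratio ranged from 1.70 to 1.92 and the FLyA ratio from 1.91 to 1.99. With 200 bp of overlap, T went from 4 to 2 recovered peaks, CDX2 from 2 to 1 and LEFTY2 from 1 to 0. With midpoints at most 1 kb apart, GATA6 went from 1 to 3, SP5 from 3 to 5, and CDX1, EVX1, GATA4 and NOTCH1 from 1 to 2. EOMES, HOXB1 and ZEB2 went from 2 to 3, and PDGFRA, WNT3 and LHX1 from 3 to 4. Under the midpoint rule 1 Santa Cruz peak can count for several R&D Systems peaks that lie close together. SP5, for example, had 3 Santa Cruz FLyB peaks for its 5 recovered peaks. These gains are therefore not all further Santa Cruz sites.

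No paired analysis was possible because each medium and antibody has 1 library. A stricter peak threshold was not run, as the lists hold no score. Without read depth or peak height, a missed site may be unbound or below the threshold of the Santa Cruz list, and these cannot be told apart. Intervals cover counting error over peaks that may not be independent, and do not cover variation between experiments. Gene windows are approximate. With windows of 10 kb and 100 kb, recovery at the mesoderm and pathway loci was 16.3% and 13.9%. For the list of streak genes it was 38.5% (20.2 to 59.4%) and 27.1% (16.4 to 40.3%). In that list, 200 bp of overlap gave 26.7% (14.6 to 41.9%), and midpoints at most 1 kb apart gave 33.3% (20.0 to 49.0%).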

Other observations

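The Santa Cruz FLyB list held 630 peaks that were not on the R&D Systems FLyB list, 21% (19.5 to 22.5%). Of these, 47 lay on an R&D Systems FLyA peak, 7.46% (5.53 to 9.80%), against 52.5% of the Santa Cruz FLyB peaks on the R&D Systems FLyB list, and 574 were on none of the other lists. Their median distance to the nearest R&D Systems FLyB midpoint was 38.3 kb. That distance was at most 1 kb for 63 of them and at most 50 kb for 341, and 289 had no R&D Systems FLyB peak within 50 kb. At the listed loci, 2 of these peaks lay near GATA4 and 1 each near MSGN1, HES7, MSX1, RUNX1, SPRY2, GATA6, FOXA2 and FOXA1. The posterior identity and epithelial-mesenchymal transition lists had none of them among 10 Santa Cruz FLyB peaks each, too few to be set apart from the 21% over all. The BMP feedback list held 1 Santa Cruz FLyB peak and the retinoic acid list 0, too few for a count of none there to be informative.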
